A study of Mus musculus with 8 samples.

Results

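E2F transcription factors and the retinoblastoma family of pocket proteins were described in spheroids of 4T1 cells with a hairpin against Tlr7. All 10 transcripts chosen by name (E2f1 to E2f8, Rb1 and Rbl1) had a row among the 41730 in the deposited counts, and all 10 were among the 13393 genes that passed the filter on low counts. 4T1 is a line of mammary carcinoma cells that arose in a BALB/c mouse. One group carried a lentivirus for a hairpin RNA that targets Tlr7 (shTlr7, 4 libraries), and the other carried a lentivirus for a scrambled hairpin (shCtrl, 4 libraries). Both groups were the same line and were grown as hanging-drop spheroids in DMEM with serum. Whether each library had a culture of its own is not stated in the labels, and the spread behind each p-value may therefore be technical.

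E2F proteins are DNA-binding factors that set the transcription of genes for DNA replication and cell division. E2F1, E2F2 and E2F3 are classed as activators, bind DNA with a DP partner and are held inactive by the retinoblastoma protein (RB1) until cyclin-dependent kinases phosphorylate it. E2F4 and E2F5 act mainly as repressors with the RB-related proteins p107 (encoded by Rbl1) and p130 (encoded by Rbl2). E2F6 represses without pocket proteins, as part of a Polycomb complex, and the atypical factors E2F7 and E2F8 repress without a DP partner. Several of these genes, E2f1, E2f7 and E2f8 among them, are themselves E2F targets in cycling cells.

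Library totals ranged from 18.1 to 93.8 M counts in shTlr7 and from 19.2 to 51.5 M counts in shCtrl. Tlr7 had 0, 4, 3 and 0 counts in the shTlr7 libraries and 2, 3, 2 and 2 counts in the shCtrl libraries, so the labels could not be checked by the targeted gene. The epithelial markers Epcam, Krt8, Krt18 and Cdh1 were abundant in both groups, while Krt5 and Cldn7 were listed at 0 and the row of Cldn7 has a further copy. The basal keratin gene Krt14 fell, with 3.26 ± 1.08 CPM in shTlr7 and 36.2 ± 2.95 CPM in shCtrl (SD, n = 4 each), a log2 fold change of -3.50 (edgeR adjusted p = 1.91e-07) that is larger in size than that of any member. Of 7 fibroblast markers 5 stayed below 1 CPM (counts scaled to library size and TMM factor) in every library, as did 6 of 8 leukocyte markers and 5 of 5 endothelial markers. The fibroblast list summed to between 43.1 and 48.0 CPM in shTlr7 and between 43.9 and 45.3 CPM in shCtrl. Most of it was Pdgfra, with means of 43.6 CPM in shTlr7 and 42.3 CPM in shCtrl (edgeR adjusted p = 0.504). Col1a1 had means of 1.64 CPM in shTlr7 and 2.22 CPM in shCtrl (edgeR adjusted p = 0.124). Of 6 tested epithelial markers, 3 rose and 3 fell, and their list summed to between 3233 and 3445 CPM in shTlr7 and between 3735 and 3926 CPM in shCtrl. The leukocyte list summed to between 31.4 and 44.5 CPM in shTlr7 and between 23.2 and 28.1 CPM in shCtrl, mostly from Cd68, a lysosomal protein gene that rose by 0.72 on the log2 scale (edgeR adjusted p = 1.41e-04). The macrophage receptor gene Csf1r was low, with 0.241 ± 0.0554 CPM in shTlr7 and 1.14 ± 0.20 CPM in shCtrl (SD, n = 4 each), and fell by 2.17 on the log2 scale (edgeR adjusted p = 4.39e-06). The markers named here were picked from their lists after their values were seen. The part of these differences in other results was not tested. In bulk RNA a lower share of cells in a cell-cycle phase and less RNA per cell cannot be told apart.

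The members did not move as a block. E2f8, an atypical repressor, fell by 1.12 on the log2 scale, while 6 other members rose by small amounts: the repressors E2f4, E2f6 and E2f7, the activator E2f2 and the pocket protein genes Rb1 and Rbl1. E2f1, E2f3 and E2f5 did not pass the threshold. With edgeR's quasi-likelihood test and a Benjamini-Hochberg adjusted p under 0.05 over all genes, 7 of the 10 members were called, against 56.1% of all tested genes. By direction, 6 members were higher and 1 lower, against 29.3% and 26.8% of all tested genes, and with only 10 members nothing is read from these shares. The median log2 fold change was 0.19 over the 10 members and 0.01 over all tested genes. E2f8 was the only member called with a change of at least 2-fold, which 7.52% of tested genes showed. A change larger in size than that of E2f8 was found for 6.12% of tested genes, whereas this share was 58.1% for E2f4 and 78.2% for E2f1.

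**Figure D1:**
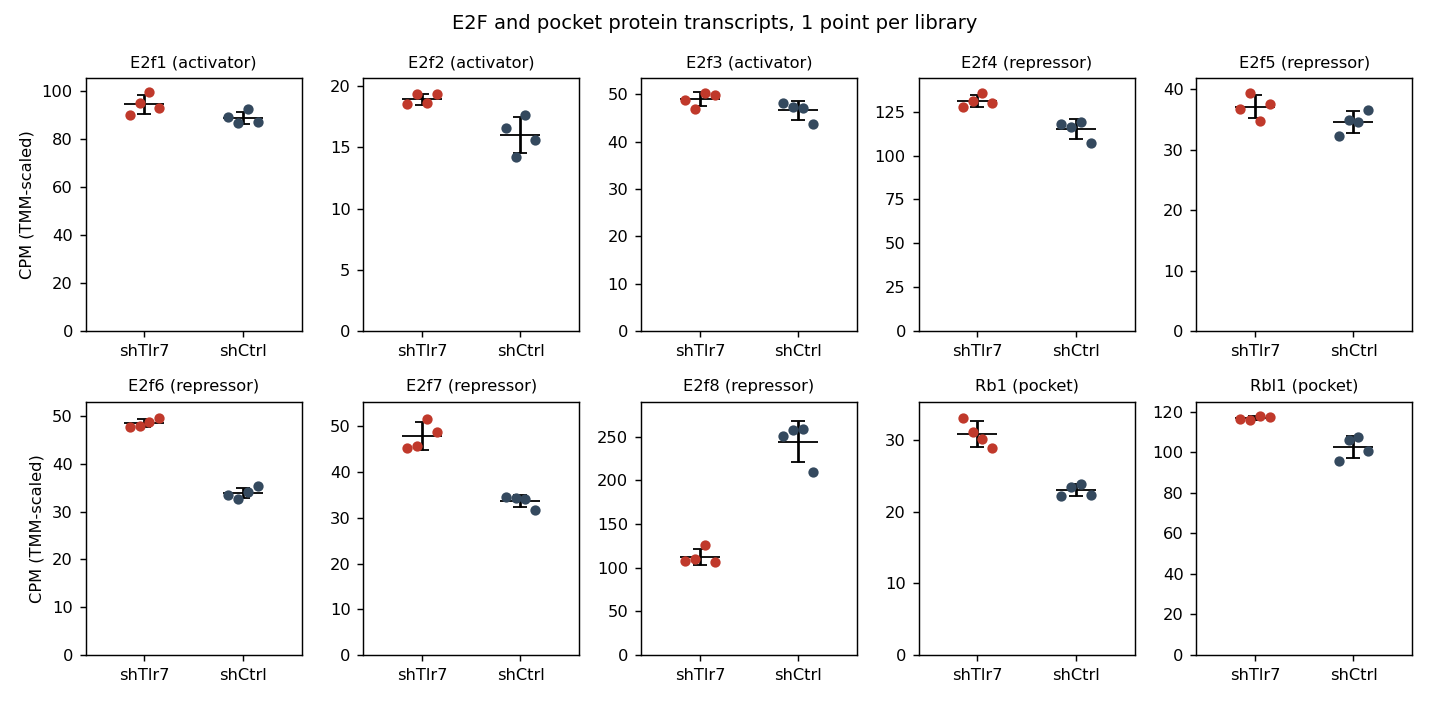
Each panel plots the CPM of 1 member on a linear axis from 0, with 1 point per library, shTlr7 left of shCtrl, and the mean with its SD over 4 libraries in black. E2f8 lies between 106 and 125 CPM in shTlr7 and between 209.8 and 258.5 CPM in shCtrl, and the points of the activators E2f1 and E2f3 overlap between the groups.

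E2f8 had 107, 110.2, 125 and 106 CPM in shTlr7 replicates 1 to 4, against 250.3, 258.0, 258.5 and 209.8 CPM in shCtrl replicates 1 to 4. All 4 shTlr7 libraries were below all 4 shCtrl libraries, as was true in one direction or the other for 49.8% of tested genes. The mean was 112 ± 8.95 CPM in shTlr7 and 244 ± 23.2 CPM in shCtrl (SD, n = 4 each), a fold of 0.459 and a log2 fold change of -1.12 ± 0.07 (SE, edgeR adjusted p = 1.32e-07). The gene lies on chromosome 7 from 48866429 to 48881596 on the minus strand (GRCm38, GENCODE M21), and 11.2% of its exonic bases are also exonic in the antisense gene Gm2788. Gm2788, chosen after its values were seen, had 1.41 ± 0.196 CPM in shTlr7 and 2.49 ± 0.434 CPM in shCtrl (SD, n = 4 each), with a log2 fold change of -0.83 (edgeR adjusted p = 0.000797). The level listed for Gm2788 was far below that of E2f8 in both groups. The part of this overlap in the counts of either gene was not tested.

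E2f7, the other atypical member, changed in the opposite direction. It had 45.3, 45.8, 51.7 and 48.8 CPM in shTlr7, against 34.6, 34.4, 34.2 and 31.8 CPM in shCtrl, with no overlap between the groups. The log2 fold change was 0.51 ± 0.06 (SE, edgeR adjusted p = 4.81e-06). The gene lies on chromosome 10 from 110745439 to 110787384 on the plus strand. Per kilobase of exon, E2f8 stood at 3.92, 3.98, 4.01 and 3.59 times the level of E2f7 in shTlr7, against 11.97, 12.4, 12.5 and 10.9 times in shCtrl. The gap between the pair was narrower in all 4 shTlr7 libraries than in any shCtrl library.

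The DNA before the annotated starts of this pair is shown because the genes moved apart, although both are known as E2F targets. RefSeq promoter windows (GRCm38.p6, 250 bases before to 50 bases after a start) matched 7 of the 10 members, and E2f4, E2f5 and Rb1 had none. Windows were searched on both strands for the E2F core TTNNCGC with C or G at both open positions, for the cell-cycle homology region word TTTGAA or its variant TTCGAA, and for the element CCAAT, which NF-Y binds. These motifs were chosen after the sequences were seen. The 250 bases before the start, 5′ to 3′ along each gene, are printed for E2f8 at chr7:48881597-48881846 (minus strand) and for E2f7 at chr10:110745189-110745438 (plus strand), with the matches in capitals.
E2f8: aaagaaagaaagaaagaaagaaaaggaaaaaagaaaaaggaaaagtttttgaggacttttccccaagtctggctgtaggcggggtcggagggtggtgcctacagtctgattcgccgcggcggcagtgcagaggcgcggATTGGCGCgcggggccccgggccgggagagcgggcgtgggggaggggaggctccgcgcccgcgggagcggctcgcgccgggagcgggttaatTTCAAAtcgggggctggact
E2f7: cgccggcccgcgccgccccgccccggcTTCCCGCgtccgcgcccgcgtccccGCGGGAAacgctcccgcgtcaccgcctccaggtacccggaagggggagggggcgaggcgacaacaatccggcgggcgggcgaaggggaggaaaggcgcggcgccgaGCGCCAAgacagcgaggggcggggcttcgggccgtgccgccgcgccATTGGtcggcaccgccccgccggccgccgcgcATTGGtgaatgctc

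The E2f8 window held 1 E2F core match, which starts 111 bases before the start and overlaps a CCAAT match on the other strand, and 1 cell-cycle homology region match 20 bases before the start. The E2f7 window held 3 E2F core matches and 2 CCAAT matches, and no match to the homology region words. Of 32851 windows of all genes, 9.57% held at least 1 E2F core, 19.2% a homology region word and 37.4% CCAAT. These shares take windows of any base composition. The share of G and C was 75.3% in the E2f7 window and 66.7% in the E2f8 window. The longer form of the E2F core with a further T in front was found in 2.26% of windows. Among them were 1 of the 2 windows of E2f2, 1 of the 2 of E2f3, and those of E2f7 and Rbl1. The windows of E2f1 and E2f6 and the other window of E2f3 held none of the motifs searched. The E2f1 window, at chr2:154569377-154569676, lies inside the gene as GENCODE M21 annotates it (minus strand, with its first base at 154569892). A match was not read as a binding site, and no match says only that these letters are not in the window.

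The sites in the other members are printed as short runs to set them beside the pair, with the longer form in capitals. The E2f3 site is at chr13:29986067-29986074 (minus strand, 11 bases before the start), that of Rbl1 at chr2:157204545-157204552 (minus strand, 18 bases before the start) and that of E2f2 at chr4:136172313-136172320 (plus strand, 40 bases into the transcript from the RefSeq start, though GENCODE M21 starts the gene only at 136172394). Of the 3 genes, E2f2 and Rbl1 rose and E2f3 did not pass the threshold.
E2f3: gaaaagccgGCGGGAAAtctgagttt
Rbl1: gaaggcgatTTTCGCGCgctttgtcg
E2f2: ggcatatagTTTGGCGCtaa

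Among the activators, E2f2 rose and the more abundant E2f1 and E2f3 did not pass the threshold. E2f2 had 18.5, 19.3, 18.6 and 19.3 CPM in shTlr7, against 16.6, 14.2, 17.6 and 15.6 CPM in shCtrl, a log2 fold change of 0.26 ± 0.07 (SE, edgeR adjusted p = 0.00763). The groups did not overlap, but the highest shCtrl library came within 1 CPM of the lowest shTlr7 library. E2f1 had 89.9, 94.95, 99.4 and 92.8 CPM in shTlr7, against 89.1, 86.4, 92.2 and 86.8 CPM in shCtrl, and the groups overlapped. Its log2 fold change was 0.09 with a 95% interval from -0.0039 to 0.19 (edgeR adjusted p = 0.0947). E2f3, whose gene has separate starts for a longer and a shorter protein that these gene counts do not tell apart, had 48.8, 47.0, 50.3 and 49.9 CPM in shTlr7, against 48.2, 47.2, 47.2 and 43.8 CPM in shCtrl. Its log2 fold change was 0.07 with a 95% interval from -0.03 to 0.17 (edgeR adjusted p = 0.222). Both intervals reach below 0, so a difference in E2f1 or E2f3 was not detectable here under TMM scaling.

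Of the repressors that work with pocket proteins, E2f4 rose and E2f5 did not pass the threshold. E2f4, the most abundant member per kilobase of exon, had 128, 131, 136 and 129.9 CPM in shTlr7, against 118, 117, 119 and 107 CPM in shCtrl. The groups did not overlap, and the log2 fold change was 0.19 ± 0.04 (SE, edgeR adjusted p = 0.00228). E2f5 had 36.7, 39.4, 34.7 and 37.6 CPM in shTlr7, against 32.2, 34.9, 34.6 and 36.5 CPM in shCtrl. The groups overlapped, and the log2 fold change of 0.10 had a 95% interval from -0.02 to 0.22 (edgeR adjusted p = 0.134).

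E2f6, the Polycomb-linked repressor, rose most of all members. It had 47.9, 48.1, 48.8 and 49.6 CPM in shTlr7, against 33.5, 32.7, 34.1 and 35.3 CPM in shCtrl. The spread within each group was small beside the distance between them, and the log2 fold change was 0.52 ± 0.05 (SE, edgeR adjusted p = 6.20e-07), a fold of 1.43. The gene lies on chromosome 12 from 16810963 to 16839742, and none of its exonic bases are shared with another annotated gene. Its difference from the next largest rise, that of E2f7 at 0.51, was within the standard errors of both.

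Both pocket protein genes rose. Rb1, which encodes the retinoblastoma protein, had 33.1, 31.2, 30.2 and 28.9 CPM in shTlr7, against 22.3, 23.5, 23.96 and 22.4 CPM in shCtrl. The groups did not overlap, and the log2 fold change was 0.42 ± 0.06 (SE, edgeR adjusted p = 3.55e-05). On chromosome 14, 14.9% of the exonic bases of Rb1 are antisense to exons of Lpar6 and Rcbtb2. Both were chosen after the overlap was seen: Lpar6 had a log2 fold change of -0.06 (edgeR adjusted p = 0.587) and Rcbtb2 fell by 0.11 on that scale (edgeR adjusted p = 0.0481). The part of this overlap in the counts of Rb1 was not tested. Rbl1, which encodes p107, had 117, 116, 118 and 117 CPM in shTlr7, against 95.7, 106, 108 and 100.4 CPM in shCtrl, a log2 fold change of 0.19 ± 0.04 (SE, edgeR adjusted p = 0.00215). The shTlr7 libraries of Rbl1 lay close together, and all were above the shCtrl libraries. The third pocket protein gene, Rbl2, went the other way, with 48.6, 48.0, 44.0 and 47.1 CPM in shTlr7, against 60.9, 55.4, 50.9 and 54.8 CPM in shCtrl, and fell by 0.24 on the log2 scale (edgeR adjusted p = 0.00263).

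**Figure D2:**
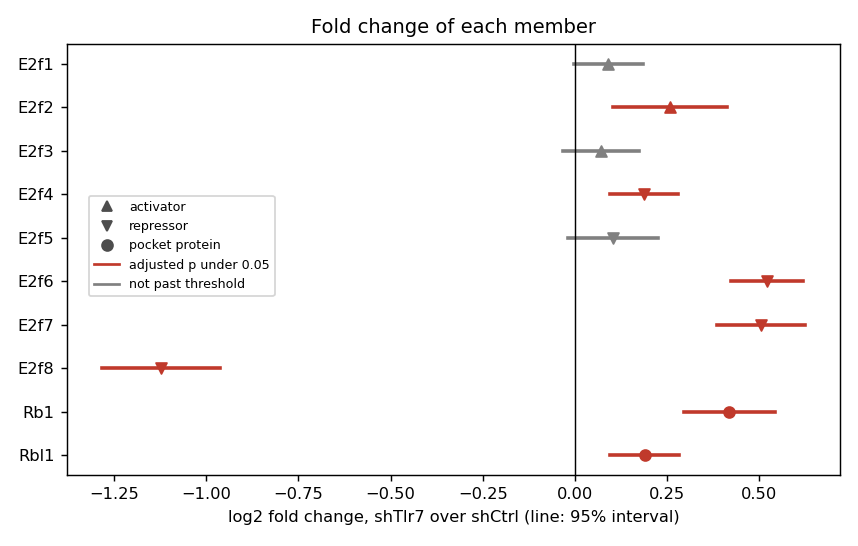
The log2 fold change of shTlr7 over shCtrl is plotted on the horizontal axis for each of the 10 members, with its 95% interval as a line, triangles for activators (up) and repressors (down), and circles for pocket proteins. E2f8 stands alone on the negative side at -1.12, and the intervals of E2f1, E2f3 and E2f5 cross 0.

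Compared per kilobase of exon (TMM-scaled CPM divided by the summed exon length in GENCODE M21), E2f4 came first in both groups, with a mean of 53.5 in shTlr7 and 47.0 in shCtrl. E2f8 had 20.6 in shTlr7, where its range overlapped those of E2f5 at 20.8 and Rbl1 at 19.5, against 44.9 in shCtrl, where its range overlapped that of E2f4. E2f1 had 29.9 in shTlr7 and 28.1 in shCtrl, and its range overlapped no neighbour in the order of either group. The lowest levels were those of E2f2, at 3.88 in shTlr7 and 3.27 in shCtrl, and just above it stood Rb1 and E2f7, whose ranges overlapped each other in both groups. In shCtrl the range of E2f7 also overlapped that of E2f2. E2f3 at 9.02 and E2f6 at 8.58 overlapped in shTlr7, while in shCtrl E2f3 at 8.58 stood above E2f6 at 5.99 without overlap. The order rests on exon lengths that take all annotated isoforms together.

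Set against each other, the activators stood higher relative to the repressors in shTlr7 with E2f8 counted, and lower without it. Summed per kilobase, E2f1 to E2f3 had 42.8 ± 1.36 in shTlr7 and 40.0 ± 1.31 in shCtrl (SD, n = 4 each), whereas E2f4 to E2f8 had 108.8 ± 2.704 in shTlr7 and 121 ± 5.82 in shCtrl. The ratio of activators to repressors was 0.390, 0.390, 0.397 and 0.395 in the shTlr7 libraries, against 0.332, 0.314, 0.332 and 0.345 in the shCtrl libraries, with no overlap. Without E2f8 the order of the groups turned round: the ratio was 0.479, 0.479, 0.49999 and 0.482 in shTlr7, against 0.533, 0.508, 0.534 and 0.525 in shCtrl. E2f8 made up 18.9% ± 1.09 of the summed repressor level in shTlr7 and 37.0% ± 1.85 in shCtrl (SD, n = 4 each). E2f4, E2f5 and E2f6 together had 82.9 ± 1.28 in shTlr7 and 72.4 ± 1.503 in shCtrl. These sums are given as values without a test, since the members were chosen with results of these data known.

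**Figure D3:**
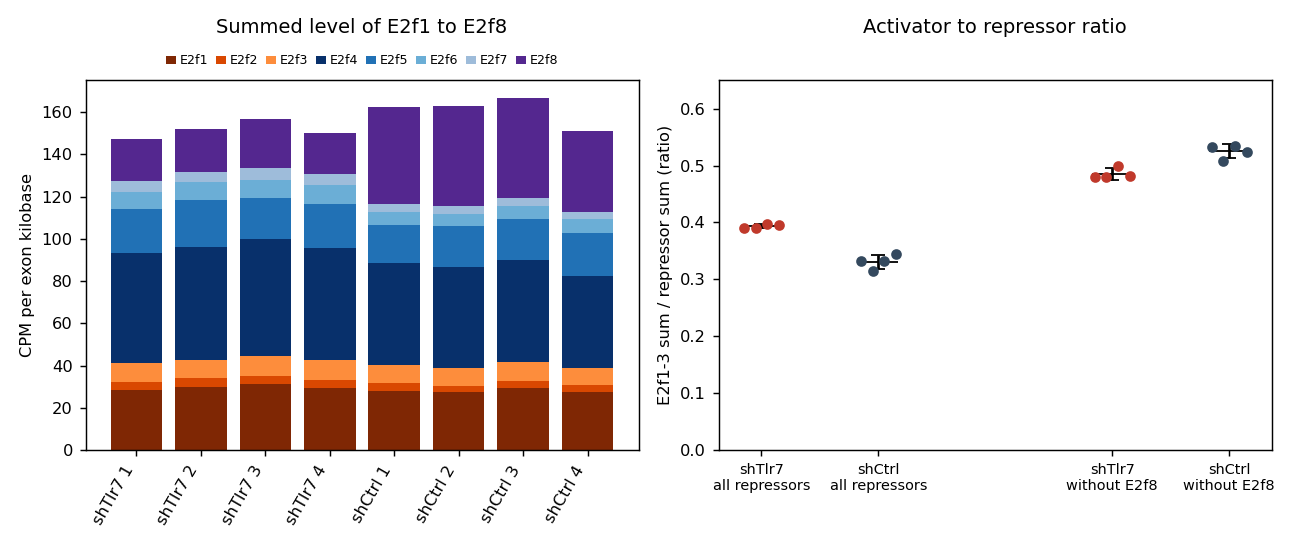
Left, the levels of E2f1 to E2f8 in CPM per exon kilobase are stacked for each library, shTlr7 first. Right, the ratio of the summed activators to the summed repressors is shown per library with mean and SD (4 libraries per group), with all 5 repressors and without E2f8. The ratio is higher in shTlr7 with E2f8 included (0.393 against 0.331) and lower without it (0.485 against 0.525).

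A list of 10 genes around the DREAM repressor complex, in which the MuvB core binds E2F4 or E2F5 and p107 or p130, held the DP partners Tfdp1 and Tfdp2, the MuvB subunits Lin9, Lin37, Lin52, Lin54 and Rbbp4, and also Rbl2, Mybl2 and the kinase gene Dyrk1a. All 10 were tested, and 0 rose and 4 fell, against 29.3% higher and 26.8% lower among all tested genes. The 4 were Mybl2, Rbl2, Rbbp4 and Tfdp2, the last chosen after its values were seen. The median log2 fold change was -0.05. Under scaling by library size alone it became 0.05, where 3 rose and 1 fell. In that setting 5513 of all 13393 tested genes were higher and 2491 lower, with a median of 0.11. Mybl2, the MYB factor that joins MuvB in cycling cells, fell by 0.35 (log2 scale, edgeR adjusted p = 0.00112), with 41.8 ± 3.66 CPM in shTlr7 and 53.4 ± 4.82 CPM in shCtrl (SD, n = 4 each). The histone-binding subunit gene Rbbp4, which has a further copy in the counts table, fell by 0.22 (edgeR adjusted p = 0.00573). Under scaling by library size alone Rbl2 and Rbbp4 did not pass the threshold, at -0.14 (edgeR adjusted p = 0.0511) and -0.12 (edgeR adjusted p = 0.113). Of 9 tested subunits of the Polycomb complex PRC1.6, which E2F6 joins, 3 rose and 5 fell, so 8 of 9 were called against 56.1% of all tested genes. Ring1, chosen after its values were seen, was listed at 0 and not tested, and has 3 further copies in the counts table. L3mbtl2, a chromatin-binding subunit, had a log2 fold change of 0.55 (edgeR adjusted p = 2.51e-05), Cbx3, which encodes a heterochromatin protein, of -0.47 (edgeR adjusted p = 1.33e-05), and the ubiquitin ligase gene Rnf2 of -0.27 (edgeR adjusted p = 7.54e-05). The count of subunits that fell ranged from 0 to 5 over 21 alternatives and was 3 without any one of replicates 1 to 3 of either group, and without shCtrl replicate 1 only 1 subunit rose. None of 5 germline genes repressed by E2F6 (Stag3, Smc1b, Slc25a31, Tuba3a and Tuba3b) had enough counts to be tested in either group, and Slc25a31 and Tuba3b, listed at 0, have a further copy in the counts table.

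Upstream of the pocket proteins, cyclin and inhibitor transcripts changed in both directions. Of 14 tested G1 cyclins, kinases, CDK inhibitors and E2F turnover factors, 7 rose and 5 fell, against 29.3% higher and 26.8% lower among all tested genes, with a median log2 fold change of 0.20. Ccne1, which encodes cyclin E1, the partner of CDK2, had 31.4 ± 2.46 CPM in shTlr7 and 10.5 ± 1.16 CPM in shCtrl (SD, n = 4 each), a log2 fold change of 1.59 (edgeR adjusted p = 4.49e-09). Ccnd1, which encodes cyclin D1, the partner of CDK4 and CDK6, had 1473 ± 35.5 CPM in shTlr7 and 2470.3 ± 166 CPM in shCtrl, a log2 fold change of -0.75 (edgeR adjusted p = 5.19e-08). The CDK inhibitor gene Cdkn1a had a log2 fold change of 1.12 (edgeR adjusted p = 1.15e-07) and has a further copy in the counts table. The other D and E cyclins, chosen after their values were seen, rose as well, with log2 fold changes of 0.72 for Ccnd2, 0.59 for Ccnd3 and 0.75 for Ccne2. Their levels were far below that of Ccnd1, at 42.4 CPM for Ccnd2 and 67.2 CPM for Ccnd3 in shTlr7. In shCtrl they were 25.7 and 44.6 CPM. The remaining genes of the list that fell, chosen in the same way, were Cdk4 (-0.42), Cdk6 (-0.26), Cdkn2c (-0.32) and Fzr1 (-0.29). Cdkn2a and Cdkn2b, chosen after their values were seen, encode inhibitors of CDK4 and CDK6 and were listed at 0 in all libraries. Skp2, chosen in the same way, was also listed at 0 but has a further copy in the counts table. In the named genes Rbl2, Rbbp4, L3mbtl2, Ccnd1 and Mcm7, and in Cdk4 and Ccne2, between 12.6% and 23.4% of exonic bases are shared with another gene.

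Among known targets of these factors more fell than rose under TMM scaling, mostly by small amounts. Of 31 tested E2F targets of G1/S and DNA synthesis, 18 fell and 5 rose, with a median log2 fold change of -0.19, against 26.8% lower and 29.3% higher among all tested genes. Scaling by library size alone gave 12 lower and 5 higher with a median of -0.08. All 13393 tested genes then had 2491 lower and 5513 higher, with a median of 0.11. Mcm7, a subunit of the replicative helicase, had 168 ± 11.3 CPM in shTlr7 and 247.0 ± 22.3 CPM in shCtrl (SD, n = 4 each), a log2 fold change of -0.56 (edgeR adjusted p = 1.54e-05). Rrm2, a ribonucleotide reductase subunit, went the other way with 274.9 ± 15.03 CPM in shTlr7 and 163 ± 20.5 CPM in shCtrl, a log2 fold change of 0.75 (edgeR adjusted p = 1.59e-05), and so did the histone mRNA-binding protein gene Slbp at 0.34 (edgeR adjusted p = 2.63e-05). Targets of the DREAM complex that belong to G2 and mitosis had a median of -0.12, with 13 of 25 lower and 1 higher, and 6 lower and 2 higher under scaling by library size alone. The mitotic checkpoint kinase gene Bub1b had a log2 fold change of -0.43 (edgeR adjusted p = 5.02e-06), Ccnb2, which encodes cyclin B2, of -0.35 (edgeR adjusted p = 2.11e-04), and Anln, which encodes the cytokinesis protein anillin, of -0.26 (edgeR adjusted p = 3.29e-04). Cdc45 of the first list and Kif11 of the second, chosen after their values were seen, had 0 to 2 counts per library and were not tested. Each has a further copy in the counts table. The part that cell-cycle phase plays in any of these values was not tested.

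**Figure D4:**
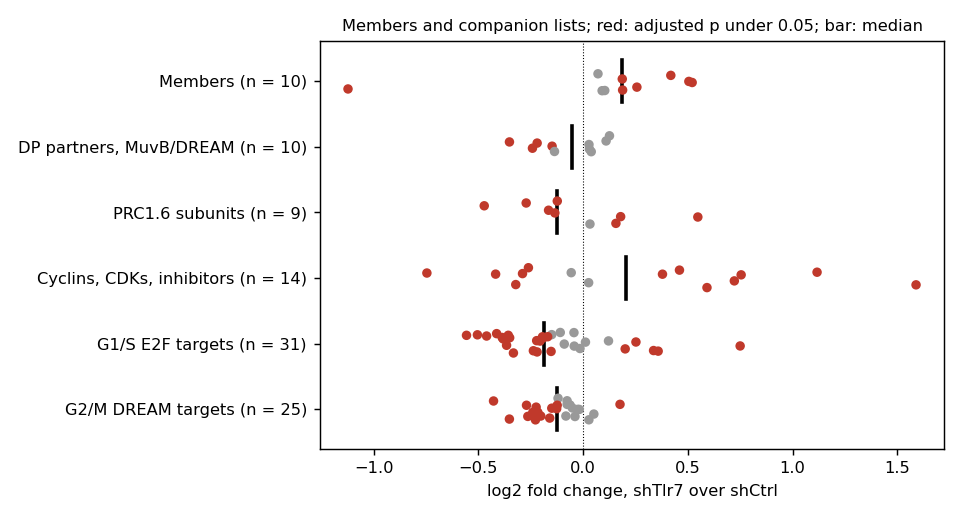
The log2 fold change of shTlr7 over shCtrl is plotted for each tested gene of the members and of 5 companion lists, with 1 point per gene, red where the edgeR adjusted p was under 0.05, and a bar at the median. The 10 members have a median of 0.19 with E2f8 far to the left, and the medians of the 2 target lists lie at -0.19 and -0.12.

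Scaling bears on the small rises. With library size as the only scaling, all tested genes had a median log2 fold change of 0.11, with 5513 genes higher and 2491 lower, against 3927 higher and 3590 lower under TMM. Under it 9 of the 10 members were higher and 1 lower, since E2f1 (edgeR adjusted p = 0.00172), E2f3 (0.00601) and E2f5 (0.00658) also passed the threshold. The fall of E2f8 and the rises of E2f6, E2f7 and Rb1 were larger than that shift in every setting that was run. So were those of E2f2, E2f4 and Rbl1, by less, with lowest values of 0.19, 0.146 and 0.153. The lowest values of E2f1, E2f3 and E2f5, at 0.066, 0.025 and 0.068, were below the shift.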

How the data were processed

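RNA-seq was done on 8 libraries of 4T1 spheroids, 4 per group, grouped by their titles. The values used are whole-number counts of reads for each gene, which the authors deposited unnormalized in 1 table. STAR 2.7.5, DESeq2 1.32.0 and GRCm38 are named in the submitters' processing notes, without roles; which program counted reads, with which annotation and strand setting, is not stated, so antisense overlaps cannot be separated. The test was run with edgeR 4.0.16 under R 4.3.3: filterByExpr on group, TMM scaling, robust glmQLFit and glmQLFTest for a group effect alone, and Benjamini-Hochberg adjustment over 13393 genes. Standard errors are the log2 fold change over the square root of F, and 95% intervals use them. The test was tried on simulated counts. Members and lists were chosen with earlier results of these data known. Named genes are the 10 members, Tlr7, and the 3 tested genes with the lowest p in each companion list; the partner and germline lists are also given gene by gene to say what they hold, and other genes are said to be chosen after their values were seen. Alternatives were other scalings, DESeq2 1.42.0, limma-voom (limma 3.58.1), filters and thresholds, a replicate block, left-out libraries, thinned counts and summed copies. Library totals ranged from 18.1 to 93.8 M counts. The biological coefficient of variation, as edgeR estimates it, was 6.76%, and the spread behind it may be technical. All pairs of libraries of the same group differed by more than counting error (chi-square per degree of freedom from 2.23 to 22.7).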

Additional observations from a re-analysis of the deposited data

Results flagged for a closer look

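Both flagged values come from shCtrl replicate 4, which lay apart from the other 3 libraries of its group, among 22 groups of 4 values examined, where chance flags about 1 group in 20. That rate takes the groups as independent, which genes of the same library are not. Over tested genes this library differed from those 3 by a chi-square per degree of freedom of 12.5 to 22.7. Among those 3 it was 2.23 to 3.32. E2f8 had 209.8 CPM there, with the nearest other shCtrl library at 250.3 CPM, still above every shTlr7 library. E2f7 had 31.8 CPM there, with the nearest other at 34.2 CPM, still below every shTlr7 library. Leaving out both libraries numbered 4 gave log2 fold changes of -1.17 for E2f8 and 0.46 for E2f7.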

How the results depend on the processing

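In the 21 alternatives, no member changed direction. The count of members that fell was 1 in each, and E2f8 ranged from -1.20 to -1.02 (log2 fold change). E2f6 ranged from 0.50 to 0.62, E2f7 from 0.46 to 0.61 and Rb1 from 0.39 to 0.52. The count of members that rose was 6 to 9, except that 0 rose by the glmTreat test against a fold of 1.5, which passes only changes clearly above that fold. That test left 472 genes higher and 666 lower, 2 higher and 1 lower upstream of the pocket proteins, and 0 in either direction among partners, PRC1.6 subunits and both target lists. Library size alone gave 3 higher and 1 lower partners, 2 lower PRC1.6 subunits, and 2 higher and 6 lower G2/M targets. In that setting 5513 of all 13393 tested genes were higher and 2491 lower, so nothing is read from these list counts. PRC1.6 subunits had 2 lower without a filter on low counts and 2 lower with thinned libraries, and 1 higher and 2 lower at an adjusted p under 0.01. Leaving out 1 library at a time gave 1 to 3 higher and 3 to 5 lower PRC1.6 subunits. E2f5 passed the threshold with limma-voom (0.15, limma adjusted p = 0.0185). The activator to repressor ratio of shTlr7 over that of shCtrl was 1.19, and 1.31 with raw count sums, which weight long transcripts more. Without 1 library it ranged from 1.17 to 1.21. The cause of the other changes was not tested. The labels do not say whether replicate numbers pair the libraries. Deviations of same-numbered libraries correlated at -0.007, 0.114, 0.118 and 0.380, and those of differently numbered libraries at -0.314 to 0.166. With the replicate block, 6 members rose and 1 fell. Over all tested genes the block gave 4334 higher and 4005 lower, against 3927 and 3590 without it. Tlr7 and the germline targets of E2F6 had too few counts to test.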
